A study of Arabidopsis thaliana with 16 samples.

Results

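The serine carboxypeptidase-like (SCPL) genes of Arabidopsis thaliana were followed in seedling roots of wild type and of an HRE1 knock-down under normal and low oxygen. They were taken as the genes whose symbol is SCPL followed by a number alone and that had a probe set paired with no other gene, and 29 of the 13356 genes measured this way fitted. Each of the 29 had 1 probe set, a group of short array probes read together as 1 value. RefSeq's gene table (assembly TAIR10.1) gives the SCPL name to 51 genes, of which 22 had no such probe set and were not analysed here. The numbers SCPL1 to SCPL19 are represented by only SCPL16 and SCPL18, and the other 27 genes lie between SCPL20 and SCPL50.

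SCPL proteins are built on the serine carboxypeptidase fold, an alpha/beta hydrolase with a serine, an aspartate and a histidine at its catalytic centre. Some members cut amino acids from the carboxyl end of peptides, many of them in the vacuole or outside the cell, while others have become acyltransferases that move an acyl group from a glucose ester to another molecule. SNG1 and SNG2, which make sinapate esters and carry the names SCPL8 and SCPL19, are acyltransferases of this kind, and BRS1, a carboxypeptidase linked to brassinosteroid signalling, carries the name SCPL24. HRE1 (also ERF73) is a transcription factor of the ethylene response factor family that low oxygen induces.

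The study measured total RNA from roots on 16 one-colour Affymetrix arrays, with 4 biological replicates in each of 4 groups. All plants were of the Columbia ecotype, 14 days old, and grown on medium with sucrose. The groups were wild type in normoxia, wild type in hypoxia, HRE1-RNAi in normoxia and HRE1-RNAi in hypoxia, each for 6 h, with hypoxia given as 3% oxygen in the dark with the roots in a sucrose solution. The normoxic plants are called untreated in the series text, and what else they shared with the hypoxic plants (the dark, the floating platform) is not stated. Titles name a single knock-down line, HRE1-RNAi20, whereas most descriptions of those samples name RNAi21 to RNAi24, so whether 1 line or several were used is not settled here. No probe set was paired with HRE1, so its own level was not analysed here. Precision is limited by having 4 arrays in a group, and p-values set each difference against the spread between arrays within the 4 groups.

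The 2% trimmed mean was near 500 in every array, while the median lay between 179.9 and 206.5 in the normoxic arrays and between 166.3 and 191.1 in the hypoxic ones. Of 10 listed genes known to respond to low oxygen, the 3 measured rose in both lines, among them PDC2, a pyruvate decarboxylase of ethanol fermentation, by 2.19 on the log2 scale in wild type and 2.01 in HRE1-RNAi. Of 11 listed root markers 3 were measured, all of them genes of root hair cells, and none read 0 in any array. Their summed intensity was 1147.8 to 1686.7 in wild type normoxia, 351.4 to 574.7 in wild type hypoxia, 1567.2 to 1866.3 in HRE1-RNAi normoxia and 362.7 to 992.5 in HRE1-RNAi hypoxia, and EXPA7, EXPA18 and XTH26, which act on root hair walls, each fell under hypoxia in both lines. Of 14 listed shoot markers 3 were measured, with none at 0, and whether their signal comes from shoot tissue was not tested. Their sum was 2187.8 to 2401.6 in wild type normoxia, 1148 to 1250.3 in wild type hypoxia, 2084.6 to 2498 in HRE1-RNAi normoxia and 1130.2 to 1653 in HRE1-RNAi hypoxia. LHCB4.1 and LHCB4.2, light-harvesting proteins, fell in both lines, whereas RCA, the activase of Rubisco, was not called in either (log2 change -0.14 in wild type and -0.18 in HRE1-RNAi, adjusted p = 0.681 and 0.564). Both marker sums were thus lower in hypoxia, like the falling SCPL genes below, and their part in those changes was not tested. In bulk RNA, fewer cells of a type and less RNA per cell cannot be told apart.

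Under hypoxia most of the SCPL genes with a mean log2 value above the median of all probe sets read lower. In wild type 12 of the 29 genes fell, 1 rose and 16 were not called, and in HRE1-RNAi 10 fell, 3 rose and 16 were not called (limma on log2(intensity + 16), adjusted p below 0.05, with p-values adjusted over all 22746 probe sets). The falling share in wild type was 41.4%, against 10.6% of all probe sets, and the rising share was 3.45%, against 7.2%. In HRE1-RNAi the falling share was 34.5%, against 10.7% of all probe sets, and the rising share was 10.3%, against 7.51%. The median change over the 29 genes was -0.51 on the log2 scale in wild type, beside -0.057 over all probe sets, and -0.23 in HRE1-RNAi, beside -0.064. With each array centred on its median, the family's medians were -0.42 in wild type and -0.12 in HRE1-RNAi, beside 0.031 and 0.046 over all probe sets.

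The calls lay mainly among the genes with brighter probe sets. The mean log2 value over all 16 arrays was above the median of all probe sets for 11 SCPL genes. In wild type 10 of these 11 fell and SCPL45 rose, where 15.6% of all probe sets above the median fell. In HRE1-RNAi 9 of the 11 fell and SCPL45 rose, where 16% of all probe sets above the median fell. The remaining 18 genes gave 2 falls in wild type, SCPL40 and SCPL43, and in HRE1-RNAi 1 fall, SCPL43, and 2 rises, SCPL30 and SCPL31. Between the lines, 10 genes fell in both, 1 rose in both, 2 were called lower in wild type alone, 2 were called higher in HRE1-RNAi alone and 14 were called in neither. Of all probe sets 7.63% fell in both lines, 5.61% rose in both, 2.92% were called lower in wild type alone and 1.89% were called higher in HRE1-RNAi alone. The direct test of the responses, given further on, called none of the 29 genes different between the lines.

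**Figure D1:**
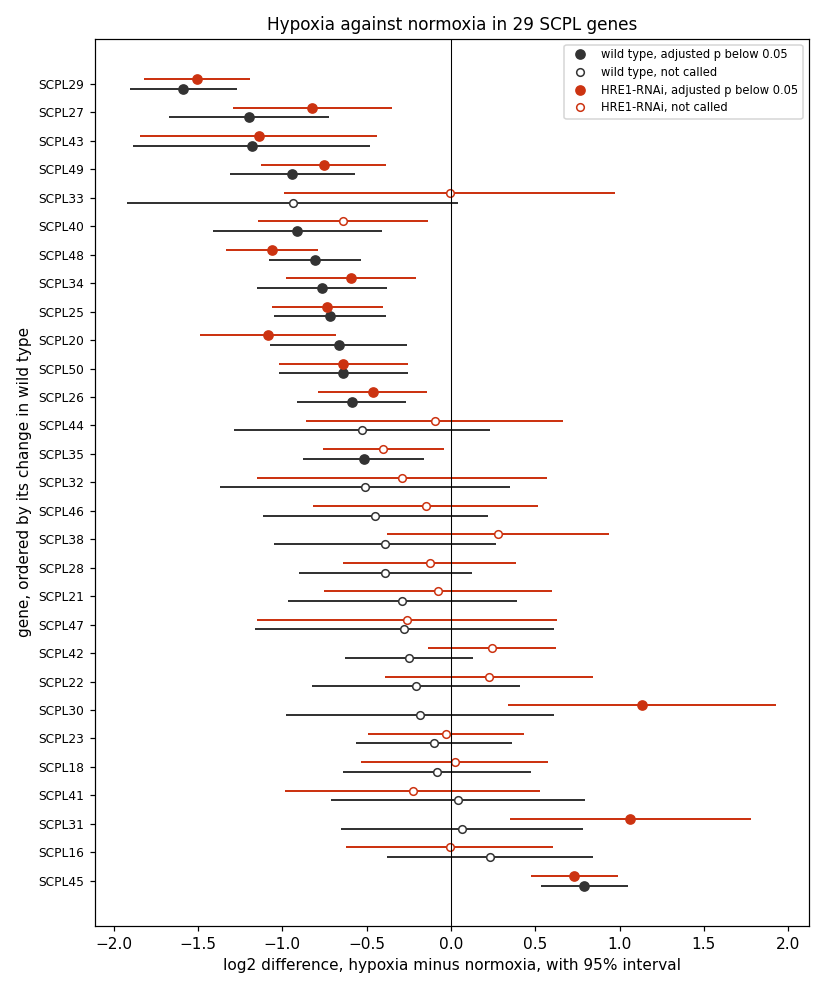
Change of each of the 29 SCPL genes under hypoxia (horizontal axis: log2 difference, hypoxia minus normoxia, lines: 95% interval) in wild type (dark) and HRE1-RNAi (red), with filled points at an adjusted p below 0.05. SCPL29 at the top fell most, by 1.59 in wild type and 1.51 in HRE1-RNAi, and SCPL45 at the bottom rose in both lines.

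SCPL49 carries the synonym CARBOXYPEPTIDASE Y in RefSeq, after the vacuolar peptidase of yeast. In wild type its intensity was 2621.3, 2960.7, 2487 and 1960.5 in the normoxic arrays and 1235.6, 1547.9, 1265.4 and 1118.9 in the hypoxic arrays. The HRE1-RNAi arrays read 2524.6, 3133.4, 2923.9 and 1988.2 in normoxia and 1617.7, 2056.1, 1546.4 and 1079.9 in hypoxia. The wild type groups were fully apart, while in HRE1-RNAi the second hypoxic array was above the fourth normoxic one. SCPL49 fell by 0.94 ± 0.18 (SE) on the log2 scale in wild type (adjusted p = 0.000449) and by 0.76 ± 0.18 in HRE1-RNAi (adjusted p = 0.00357).

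SCPL48 had 1356.6, 1265.1, 1509.2 and 1427.5 in wild type normoxia and 862.4, 723.8, 707.4 and 870.5 in wild type hypoxia. In HRE1-RNAi it had 1796.2, 1886.4, 1980.1 and 1659.4 in normoxia and 900.4, 1066.7, 831.8 and 705.2 in hypoxia. Every hypoxic array was below every normoxic array of its own line, and the HRE1-RNAi normoxic arrays were all above the wild type normoxic ones. The fall was 0.80 ± 0.13 in wild type, written as a log2 difference of -0.80 (adjusted p = 8.4e-05), and -1.06 ± 0.13 in HRE1-RNAi (adjusted p = 2e-06).

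SCPL29 changed most of the family among the called genes of wild type, from a mean of 1779 ± 81.2 (SD, n = 4) in normoxia to 588.3 ± 107 (SD, n = 4) in hypoxia. Its normoxic arrays held 1759.5, 1806.2, 1872.1 and 1679.1, and its hypoxic arrays 569.8, 664.7, 444.2 and 674.6. In HRE1-RNAi it held 1645.1, 2092.6, 2112.3 and 1335.3 in normoxia and 603, 665.6, 639.3 and 543.6 in hypoxia. No hypoxic array of either line reached the lowest normoxic array. SCPL29 fell by 1.59 ± 0.15 in wild type, a 3.01-fold difference (adjusted p = 5.05e-08), and by 1.51 ± 0.15 in HRE1-RNAi, a 2.84-fold difference (adjusted p = 1.03e-07).

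SCPL27 was at 613.1, 508.6, 449.8 and 406.8 in wild type normoxia against 187.6, 341.8, 124.3 and 214.3 in hypoxia. In HRE1-RNAi it was at 503.1, 463, 344.3 and 291.4 in normoxia against 162.9, 236.8, 231.3 and 236.2 in hypoxia. The groups did not overlap in either line, and the second hypoxic array was the highest hypoxic one in both. SCPL27 fell by 1.20 ± 0.23 in wild type (adjusted p = 0.000475) and by 0.82 ± 0.23 in HRE1-RNAi (adjusted p = 0.0126). The HRE1-RNAi call was lost without the first normoxic or the first hypoxic array of that line, with adjusted p = 0.0581 and 0.058.

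SCPL20 gave 272.8, 271.6, 363.1 and 218 in wild type normoxia and 189.5, 170.6, 165.9 and 150.6 in hypoxia. The HRE1-RNAi values were 343.3, 315.7, 267.2 and 462 in normoxia and 128.1, 217.9, 158.5 and 119.3 in hypoxia. Normoxic and hypoxic arrays were apart in both lines, with the highest value of all in the fourth normoxic HRE1-RNAi array. The log2 change was -0.67 ± 0.20 in wild type (adjusted p = 0.0186) and -1.09 ± 0.20 in HRE1-RNAi (adjusted p = 0.000231), and without normoxic array 3 or hypoxic array 4 the wild type call was lost, with adjusted p = 0.0851 and 0.0529.

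SCPL25 stood at 297.3, 335.3, 348.2 and 342.2 in wild type normoxia and at 195.8, 199.4, 151.3 and 242.6 in hypoxia. It stood at 327.7, 279.9, 290.2 and 368.4 in HRE1-RNAi normoxia and at 214.2, 147.1, 175.1 and 202.9 in hypoxia. The groups were apart in both lines. The change was nearly the same size in the lines, with a log2 difference of -0.72 ± 0.16 in wild type (adjusted p = 0.00229) and -0.73 ± 0.16 in HRE1-RNAi (adjusted p = 0.00176).

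SCPL34 read 327.8, 345.1, 289.2 and 337.9 in wild type normoxia and 208.2, 267.1, 111.3 and 182.6 in hypoxia. In HRE1-RNAi the values were 364.5, 350.7, 431.3 and 378.1 in normoxia and 212, 240.3, 242.8 and 298.1 in hypoxia. The hypoxic arrays were below the normoxic arrays in both lines, and the third hypoxic wild type array was the lowest of all. SCPL34 fell by 0.77 ± 0.19 in wild type (adjusted p = 0.00484) and by 0.59 ± 0.19 in HRE1-RNAi (adjusted p = 0.0286). The HRE1-RNAi call was lost under 7 alternatives with the same threshold, among them centring each array on its median (adjusted p = 0.0866) and leaving out single HRE1-RNAi arrays.

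SCPL26 measured 686.2, 771.5, 586.7 and 625.8 in wild type normoxia and 465.8, 624.4, 346.2 and 357.1 in hypoxia. In HRE1-RNAi it measured 702.8, 661.1, 669.5 and 595.2 in normoxia and 478.7, 450.7, 487.6 and 467.2 in hypoxia. The second hypoxic wild type array lay inside the normoxic range, while the HRE1-RNAi groups were apart. SCPL26 fell by 0.59 ± 0.16 in wild type (adjusted p = 0.00892). In HRE1-RNAi it fell by 0.46 ± 0.16 (adjusted p = 0.0397), a call that was lost when any 1 of 7 of the 8 HRE1-RNAi arrays or the first normoxic wild type array was left out, with adjusted p between 0.0507 and 0.103. Centring each array on its median ended it too (adjusted p = 0.158).

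SCPL50 had intensities of 483.7, 504.4, 577.1 and 449.8 in wild type normoxia and 253.3, 398.4, 262.1 and 378.5 in hypoxia. Its HRE1-RNAi intensities were 440.7, 518.1, 494.6 and 300.6 in normoxia and 258.9, 349.9, 255.9 and 229.3 in hypoxia. The wild type groups were apart, and in HRE1-RNAi the fourth normoxic array was below the second hypoxic one. Both log2 changes were -0.64 ± 0.18 (adjusted p = 0.0168 in wild type and 0.0164 in HRE1-RNAi). Centring each array on its median ended both calls (adjusted p = 0.0651 and 0.0777), as did leaving out normoxic array 3 or hypoxic array 1 or 3 in wild type and normoxic array 2 or 3 in HRE1-RNAi.

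SCPL43 had a dim probe set. It read 60.9, 76.9, 102.2 and 93 in wild type normoxia and 42.6, 16.5, 30.2 and 23.4 in hypoxia. In HRE1-RNAi it read 56.2, 37.7, 21.2 and 55.7 in normoxia and 3.3, 32.2, 8.5 and 3.2 in hypoxia, where the second hypoxic array was above the third normoxic one. The log2 change was -1.18 ± 0.34 in wild type (adjusted p = 0.016) and -1.14 ± 0.34 in HRE1-RNAi (adjusted p = 0.0198), and the pseudocount of 16 is of the order of several of these values. With a pseudocount of 1 the wild type change was -1.58 and was no longer called (adjusted p = 0.0792), while that in HRE1-RNAi was -2.23 and was called. With a pseudocount of 64 the changes were -0.68 and -0.50, both called. Without both HRE1-RNAi arrays numbered 4 the HRE1-RNAi change was not called (adjusted p = 0.128). Leaving out normoxic array 3 or hypoxic array 2 ended the wild type call (adjusted p = 0.0527 and 0.0535), and leaving out array 1 or 4 of either HRE1-RNAi group ended the other (adjusted p between 0.0558 and 0.0692).

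SCPL40 and SCPL35 were called lower in wild type alone. SCPL40 held 232, 240.1, 158.3 and 238.4 in wild type normoxia and 91.9, 109.1, 75.3 and 166.9 in hypoxia, and in HRE1-RNAi it held 232.7, 247.4, 291.1 and 126.9 in normoxia and 101.6, 170.6, 144.9 and 121.7 in hypoxia. In wild type the fourth hypoxic array was above the third normoxic one, and in HRE1-RNAi the fourth normoxic array was below 2 of the hypoxic ones. Its log2 change was -0.91 ± 0.24 in wild type (adjusted p = 0.00947) and -0.64 ± 0.24 in HRE1-RNAi (adjusted p = 0.072). Without both HRE1-RNAi arrays numbered 4, or with array weights, SCPL40 was called lower in HRE1-RNAi too.

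SCPL35 read 491.3, 628.5, 424 and 500.2 in wild type normoxia and 305.3, 428.4, 273.9 and 410.2 in hypoxia. In HRE1-RNAi it read 523.3, 603.4, 453.9 and 418.6 in normoxia and 399.9, 284, 430.4 and 385 in hypoxia. In each line the highest hypoxic array was just above the lowest normoxic one. Its log2 change was -0.52 ± 0.17 in wild type (adjusted p = 0.04) and -0.40 ± 0.17 in HRE1-RNAi (adjusted p = 0.122). The wild type call was lost when either hypoxic array 1 or 3, or normoxic array 1, 2 or 4, was left out, with adjusted p up to 0.151, and with centring on the median (adjusted p = 0.124).

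SCPL45 was the single member that rose in both lines. Its intensity was 521.4, 459.5, 585.7 and 483.1 in wild type normoxia and 911.2, 1064.1, 801 and 826.5 in hypoxia. In HRE1-RNAi it was 543.1, 505.5, 531.7 and 482.7 in normoxia and 874.5, 870.1, 794.7 and 931.9 in hypoxia. All 8 hypoxic arrays were above all 8 normoxic arrays. SCPL45 rose by 0.79 ± 0.12 on the log2 scale in wild type, 1.73-fold (adjusted p = 5.07e-05), and by 0.73 ± 0.12 in HRE1-RNAi, 1.66-fold (adjusted p = 0.000119).

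SCPL30 and SCPL31 were called higher under hypoxia in HRE1-RNAi and were dim. SCPL30 read 39.6, 34.7, 11.8 and 2.3 in wild type normoxia and 18.2, 34.6, 7.9 and 4.9 in wild type hypoxia, and 4, 19.7, 18.5 and 3.4 in HRE1-RNAi normoxia and 66.1, 34.1, 38.2 and 33.8 in HRE1-RNAi hypoxia. The wild type arrays of both conditions spread over the same range, and the HRE1-RNAi groups did not overlap. The log2 change was -0.18 ± 0.38 in wild type (adjusted p = 0.828) and 1.13 ± 0.38 in HRE1-RNAi (adjusted p = 0.0418). The latter moved to 2.12 with a pseudocount of 1 (adjusted p = 0.0771) and to 0.50 with a pseudocount of 64, and leaving out normoxic array 1 or 4 or hypoxic array 1, 2 or 3 of HRE1-RNAi, or hypoxic array 1 of wild type, ended the call (adjusted p between 0.0502 and 0.134).

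SCPL31 read 87.2, 63.9, 43 and 47.6 in wild type normoxia and 61.4, 89.6, 57.3 and 46.1 in hypoxia. In HRE1-RNAi it read 34.5, 37.2, 16.7 and 73 in normoxia and 103, 70.8, 50.2 and 202.7 in hypoxia. The fourth array was the highest of both HRE1-RNAi groups, and its normoxic value exceeded 2 of the hypoxic ones. The log2 change was 0.07 ± 0.35 in wild type (adjusted p = 0.938) and 1.06 ± 0.35 in HRE1-RNAi (adjusted p = 0.0341). Without the fourth hypoxic HRE1-RNAi array it was 0.74 and not called (adjusted p = 0.141), and 4 other single HRE1-RNAi arrays ended the call as well when left out. With a pseudocount of 64 it was 0.66 and still called.

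**Figure D2:**
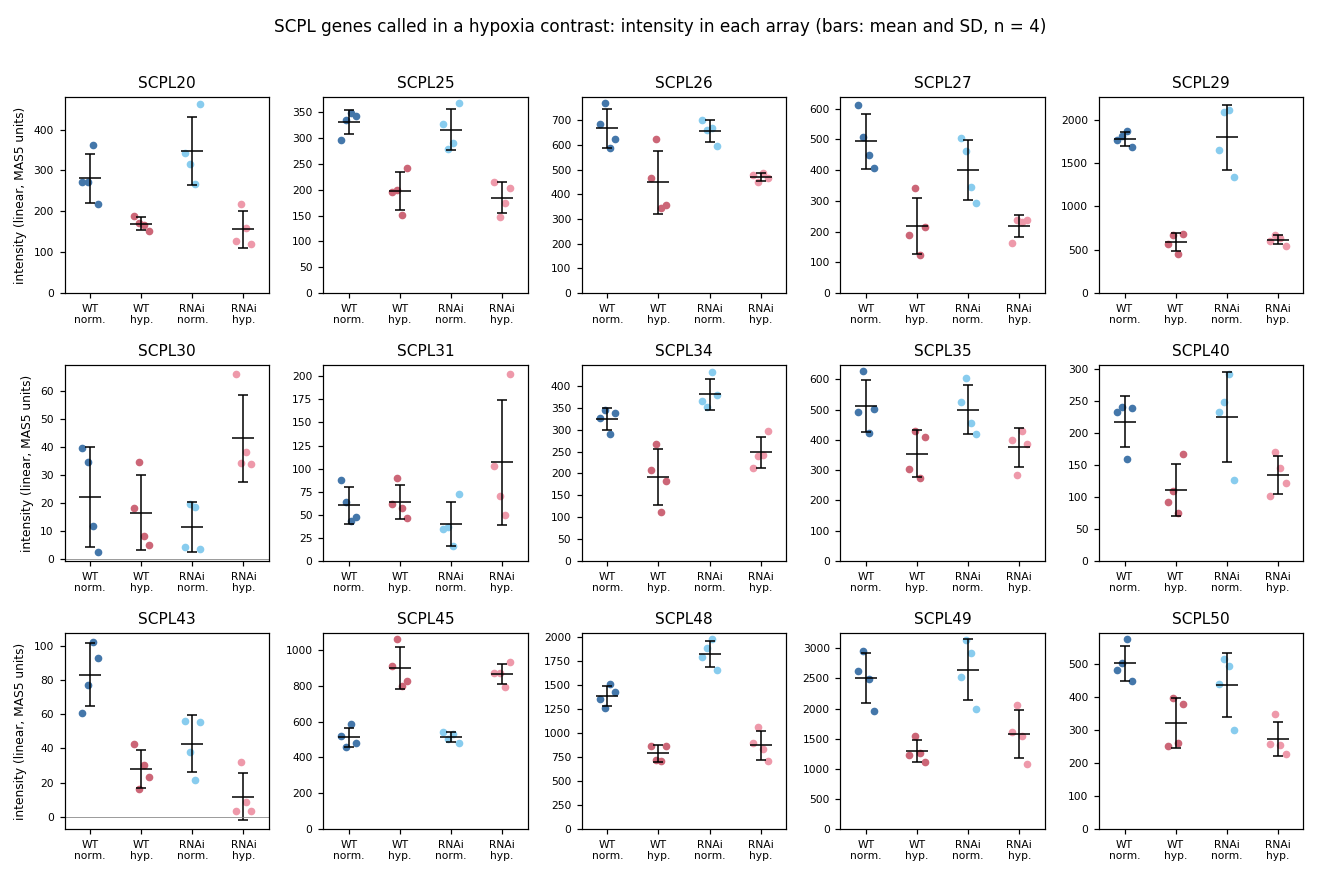
Intensity (vertical axes, linear, from 0 or just below) of the 15 SCPL genes called in a hypoxia contrast of either line, with a point for each array and black bars for mean and SD (n = 4) in wild type and HRE1-RNAi (RNAi) under normoxia and hypoxia. The hypoxic groups are lower for 12 genes and higher for SCPL45, while the groups of SCPL30 and SCPL31 overlap widely in wild type.

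The 14 genes called in neither line were SCPL16, SCPL18, SCPL21, SCPL22, SCPL23, SCPL28, SCPL32, SCPL33, SCPL38, SCPL41, SCPL42, SCPL44, SCPL46 and SCPL47. SCPL16 and SCPL18, whose numbers fall in the range of the acyltransferases SNG1 and SNG2, had group means of 80.8 to 94.4 and of 76.4 to 82.2. Their log2 changes in wild type were 0.23 (95% interval -0.38 to 0.84) and -0.08 (-0.64 to 0.47), and in HRE1-RNAi -0.01 (-0.62 to 0.60) and 0.02 (-0.53 to 0.58). A fall of 0.52, the size called for SCPL35 in wild type, lies outside the wild type interval of SCPL16 and inside the other 3 intervals.

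SCPL33 had a wild type change of -0.94 ± 0.47, as large as that of SCPL49, with an unadjusted p of 0.0601. Its wild type arrays read 61.2, 72.6, 48.2 and 5.5 in normoxia and 14.5, 2.1, 7.5 and 38 in hypoxia, and the fourth array of each group went against the other 3. In HRE1-RNAi its change was -0.01 ± 0.47. SCPL42, just below the median of all probe sets in its mean log2 value, had a mean of 180.2 over the 16 arrays. Its changes were -0.25 ± 0.18 in wild type and 0.24 ± 0.18 in HRE1-RNAi. For SCPL22, SCPL23, SCPL38 and SCPL41 every group mean was below the pseudocount of 16, so their changes say little on this scale.

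The other uncalled genes were dim and had changes below 0 in both lines. SCPL21 had group means of 39.0 to 62.0 and changes of -0.29 ± 0.33 in wild type and -0.07 ± 0.33 in HRE1-RNAi. SCPL32 ran from 6.35 to 32.8 in its group means, with changes of -0.51 ± 0.41 and -0.29 ± 0.41, and 3 of its 8 wild type arrays read above 50 while no other array passed 12.5. SCPL44 had group means of 26.5 to 43.5 and changes of -0.53 ± 0.37 and -0.10 ± 0.37. SCPL46 and SCPL47 had changes of -0.45 ± 0.32 and -0.28 ± 0.43 in wild type and of -0.15 ± 0.32 and -0.26 ± 0.43 in HRE1-RNAi. The sign of these uncalled changes is a description, since each interval covers 0.

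Some members lie beside each other in the RefSeq gene order. SCPL26 and SCPL28 are adjacent on chromosome 2. SCPL26 fell in both lines, while SCPL28 changed by -0.39 ± 0.25 in wild type (adjusted p = 0.339) and -0.13 ± 0.25 in HRE1-RNAi (adjusted p = 0.813), and whether the 2 genes differ was not tested. SCPL28 read 124.1, 108.6, 120 and 122.4 in wild type normoxia and 91.3, 120.7, 46.7 and 105.7 in hypoxia. SCPL22 and SCPL23 are adjacent on chromosome 2 and both lay near the floor, with at most 19.9 and 6.2 in any array. SCPL41 and SCPL42 lie on chromosome 5 with 2 protein-coding genes between them. SCPL41 was near the floor and SCPL42 was brighter, and neither was called.

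In 3 of the 4 groups at least 1 array was the lowest or the highest for at least 6 of the falling genes with a median deviation beyond 0.1. Over the 12 genes that fell in wild type, the third wild type hypoxic array was the lowest of its group in 8, with a median deviation from the group mean of -0.32 on the log2 scale, against 0.023 over all probe sets. The second wild type hypoxic array was the highest of its group in 6 of the 12, with a median deviation of 0.23. In HRE1-RNAi the fourth normoxic array was the lowest in 8 of the 12, with a median of -0.19, and the fourth hypoxic array in 6, with a median of -0.14. The second HRE1-RNAi hypoxic array was the highest in 8 of the 12, with a median of 0.21. In wild type normoxia no array stood out this way: the third was the highest in 6 and the lowest in 4, and the median deviations of the 4 arrays lay between -0.049 and 0.039. Whether the genes vary together was not tested. Over all probe sets the median deviation of these arrays lay between -0.018 and 0.023, and what sets these arrays apart was not tested. Without both HRE1-RNAi arrays numbered 4, the counts were 12 lower and 1 higher in wild type and 10 lower and 2 higher in HRE1-RNAi.

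**Figure D3:**
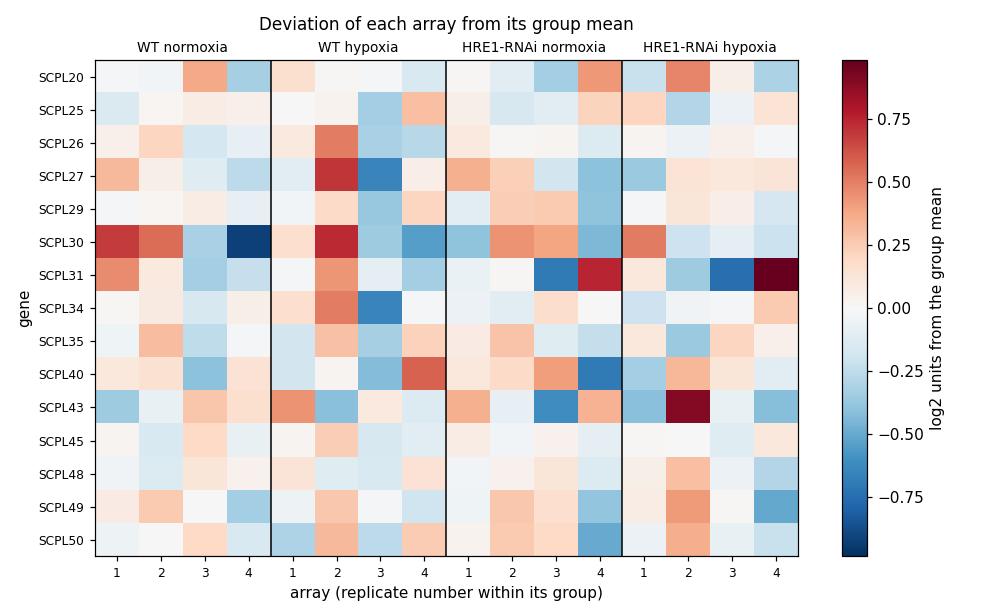
Deviation of each array from its group mean (colour: log2 units, red above and blue below) for the 15 called SCPL genes, with arrays 1 to 4 of each group as columns. The third wild type hypoxic array and the fourth HRE1-RNAi normoxic array are blue for most of the falling genes, and SCPL30, SCPL31 and SCPL43 have the widest spread.

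The HRE1 knock-down was set against wild type within each condition. The median difference over the 29 genes was -0.052 in normoxia, beside -0.0092 over all probe sets, with 19 genes below 0. It was 0.11 in hypoxia, beside -0.014, with 19 genes above 0. In normoxia no SCPL gene was called (limma, 0.0264% of all probe sets called), and 2 of the 29 had an unadjusted p below 0.05, as had 987 of the 22746 probe sets. These were SCPL48, higher by 0.39 ± 0.13 in HRE1-RNAi (unadjusted p = 0.00675, adjusted p = 0.928), and SCPL43, with a difference of -0.79 ± 0.34 (unadjusted p = 0.0294). For both genes the 4 arrays of one line were apart from the 4 of the other, at 1265.1 to 1509.2 in wild type and 1659.4 to 1980.1 in HRE1-RNAi for SCPL48, and at 60.9 to 102.2 in wild type and 21.2 to 56.2 in HRE1-RNAi for SCPL43. SCPL34 was apart in the same way, at 289.2 to 345.1 in wild type and 350.7 to 431.3 in HRE1-RNAi, with an unadjusted p of 0.254 (limma). How many of all probe sets are apart like this was not counted. Neither SCPL48 nor SCPL43 passed the adjustment over all probe sets.

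In hypoxia no SCPL gene was called between the lines either (limma, 0.022% of all probe sets called), and 3 of the 29 had an unadjusted p below 0.05, as had 1036 of all probe sets. SCPL30 was higher in HRE1-RNAi by 0.92 ± 0.38 (unadjusted p = 0.025), SCPL34 by 0.39 ± 0.19 (unadjusted p = 0.0479), and SCPL43 differed by -0.75 ± 0.34 (unadjusted p = 0.0381). For all 3 the arrays of the lines overlapped. Each of the 11 brighter genes had a 95% interval within 2-fold of no difference in normoxia and in hypoxia. SCPL29, for example, differed by -0.01 (-0.33 to 0.31) in normoxia and by 0.07 (-0.24 to 0.39) in hypoxia, and SCPL45 by 0.01 (-0.24 to 0.27) and -0.05 (-0.30 to 0.21). For dim genes the intervals reached from -1.49 to 1.19 in normoxia and from -1.45 to 1.71 in hypoxia.

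**Figure D4:**
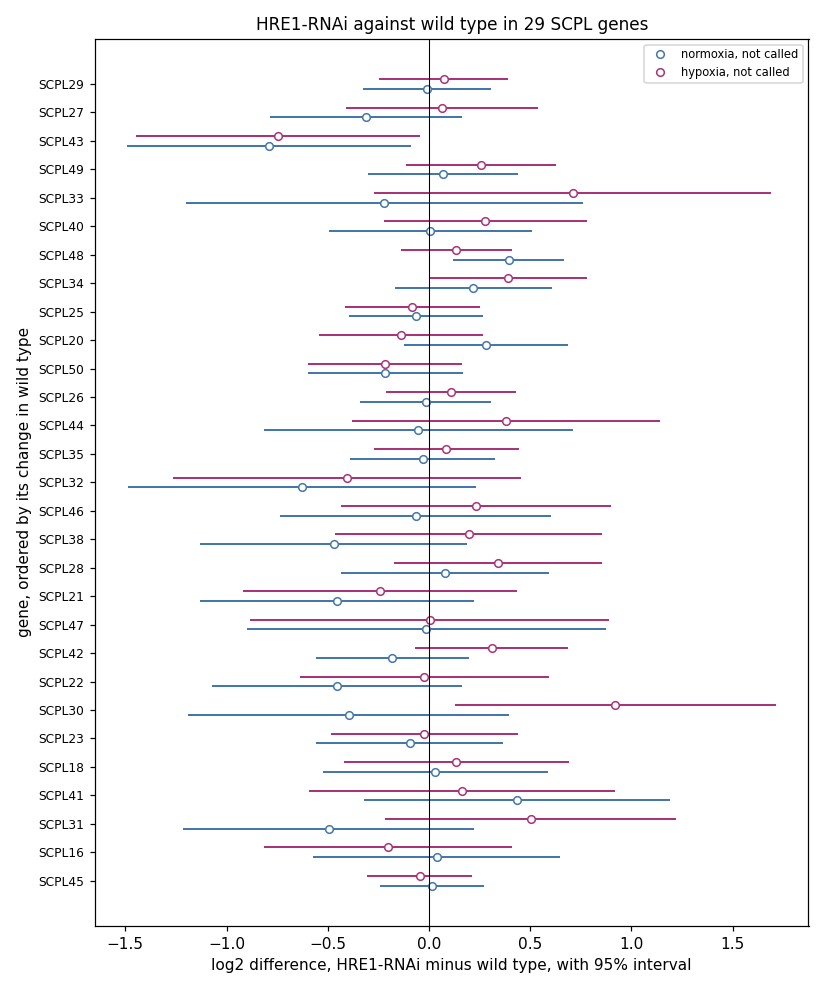
Difference between the lines for each of the 29 SCPL genes (horizontal axis: log2 difference, HRE1-RNAi minus wild type, lines: 95% interval) in normoxia (blue) and hypoxia (purple). All points are open because no gene passed an adjusted p of 0.05, and SCPL43 lies lowest in both conditions, at -0.79 and -0.75.

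The hypoxia responses of the lines were compared directly as a difference of differences. Its median over the 29 genes was 0.17, beside -0.0041 over all probe sets, with 22 genes above 0 and 7 below. With each array centred on its median, it was 0.19, beside 0.017 over all probe sets. Whether the family differs as a set was not tested. No SCPL gene was called (limma, 0.0176% of all probe sets called), and 1 of the 29 had an unadjusted p below 0.05, as had 770 of all probe sets. That gene was SCPL30, whose response was higher in HRE1-RNAi by 1.32 ± 0.54 (unadjusted p = 0.0236, adjusted p = 1). SCPL31 followed with 1.00 ± 0.49 (unadjusted p = 0.0534) and SCPL42 with 0.49 ± 0.26 (unadjusted p = 0.0707). The calls of SCPL35 and SCPL40 in wild type alone came with differences of 0.12 ± 0.24 and 0.27 ± 0.34. SCPL29 differed by 0.08 (95% interval -0.37 to 0.53), SCPL48 by -0.26 (-0.64 to 0.13) and SCPL20 by -0.42 (-0.99 to 0.15). Of the 11 brighter genes 10 had an interval within 2-fold. Many of the responses were themselves below 2-fold, such as those of SCPL25 (-0.72 in wild type and -0.73 in HRE1-RNAi). An interval within 2-fold therefore does not show that the lines respond alike.

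Across the 16 arrays, the genes outside the family whose levels ran most like SCPL29 were AT3G50300, AT2G39040 and ZW9 (AT1G58270), with Pearson's r of 0.985, 0.984 and 0.984. All 4 genes share the gap between normoxic and hypoxic arrays, which enters these correlations. The r of the deviations from group means, without that gap, was 0.71, 0.84 and 0.70. For other probe sets the r of deviations is not given, and these 3 genes were picked as the best matches on these same arrays. Their log2 changes under hypoxia in wild type and HRE1-RNAi were -2.39 and -2.50 for AT3G50300, -2.14 and -2.46 for AT2G39040, and -2.58 and -2.52 for ZW9.

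Of 21 listed genes of the sinapate and phenylpropanoid route, which supplies the glucose esters that SCPL acyltransferases use, 5 were measured. Under hypoxia the wild type had 1 of them higher, 2 lower and 2 uncalled, and HRE1-RNAi had 1 higher and 4 uncalled. Their median log2 change was -0.30 in wild type and 0.0084 in HRE1-RNAi, where all probe sets gave -0.057 and -0.064. Each median is the value of a single uncalled gene, UGT84A3 in wild type and UGT84A1 in HRE1-RNAi. UGT84A1 had group means of 3.95 to 5.7, all below the pseudocount, and a wild type change of -0.05. UGT84A3 had group means of 44.7 to 67.0 and an HRE1-RNAi change of 0.38. The difference of the hypoxia responses was called for none of the 5 genes. ALDH2C4, an aldehyde dehydrogenase that forms sinapate and ferulate, rose by 0.77 ± 0.13 in wild type (adjusted p = 0.000126) and by 0.78 ± 0.13 in HRE1-RNAi (adjusted p = 0.000105). UGT84A4, a glucosyltransferase of hydroxycinnamates, fell by 0.73 ± 0.19 in wild type (adjusted p = 0.0077) and had a change of -0.52 ± 0.19 in HRE1-RNAi (adjusted p = 0.0604). HCT, a hydroxycinnamoyltransferase of the lignin route, fell by 0.38 ± 0.13 in wild type (adjusted p = 0.0424) and had a change of -0.35 ± 0.13 in HRE1-RNAi (adjusted p = 0.0617). Of 14 listed genes of brassinosteroid synthesis and signalling only the receptor gene BRL1 was measured, with changes of -0.35 ± 0.20 in wild type (adjusted p = 0.263) and -0.23 ± 0.20 in HRE1-RNAi (adjusted p = 0.501).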

How the data were processed

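For each array the authors deposited 1 linear intensity per probe set, made with MAS5 per the submitters' processing notes, with no version given. The equal 2% trimmed means show a scaling between arrays. Of the probe sets, 64 controls were left out and 22746 tested. Genes came from the probe table supplied for the series, in which 13513 probe sets have 1 gene, 503 have several genes and 8730 are unnamed. Values were transformed to log2(intensity + 16), which understates changes of dim genes. Group means were fitted with limma 3.58.1 (R 4.3.3) over 16 arrays with trended and robust moderation. P-values of 5 contrasts were two-sided and adjusted by Benjamini-Hochberg over all probe sets. The fit was tested on simulated data. The members and the 5 lists of other genes were chosen with earlier results of these data known. Values in every array are given for genes called in any contrast and for the 3 brightest members. Alternatives covered scaling, pseudocount, filter, moderation, weights, threshold, replicate block and arrays left out.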

Additional observations from a re-analysis of the deposited data

Results flagged for a closer look

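In 10 of the 116 combinations of gene and group, 1 array stood apart from the other 3 by more than Dixon's critical ratio for 4 values (gap over range, both on the log2(intensity + 16) scale, while the values below are intensities), and chance alone flags about 1 in 20 groups. Of the genes called under hypoxia, SCPL27 was low in the first HRE1-RNAi hypoxic array (162.9 against 231.3 to 236.8, ratio 0.936), SCPL40 was low in the third wild type normoxic array (158.3 against 232 to 240.1, ratio 0.916), and SCPL30 was high in the first HRE1-RNAi hypoxic array (66.1 against 33.8 to 38.2, ratio 0.831). Among the uncalled genes, SCPL16 was high in the third wild type hypoxic array (121.8 against 82.3 to 87.6, ratio 0.844) and SCPL21 in the second wild type normoxic array (93.3 against 48.6 to 53.3, ratio 0.866). SCPL47 was high in the third HRE1-RNAi normoxic array (58.4 against 25.1 to 26.8, ratio 0.932). The other flags fell on genes near the floor of detection. SCPL22 had 10.3 in the third HRE1-RNAi normoxic array against 1.4 to 2.1 (ratio 0.904), and SCPL23 had 4.7 in the third wild type hypoxic array against 2.1 to 2.5 (ratio 0.837). SCPL38 had 34 in the first wild type normoxic array against 5.1 to 6.3 (ratio 0.936), and SCPL41 had 33.8 in the first HRE1-RNAi hypoxic array against 1.6 to 4.9 (ratio 0.835).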

How the results depend on the processing

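No called SCPL gene changed sign under any alternative run, and no member was called in the contrasts between lines or in the difference of responses under any of them. With at least a 2-fold change required, 3 genes were lower and 0 higher in wild type, and 4 were lower and 2 higher in HRE1-RNAi. At an adjusted p below 0.01, 8 were lower and 1 higher in wild type, and 5 were lower and 1 higher in HRE1-RNAi. The shares of all probe sets at these thresholds are not given here. Without the dimmest 40% of probe sets, 11 genes were lower and 1 higher in wild type, and 9 were lower and 1 higher in HRE1-RNAi. SCPL30, SCPL31 and SCPL43 were among the probe sets removed, so they were not tested under this filter. Leaving out each array in turn gave 9 to 12 lower and 1 higher in wild type, and 6 to 10 lower and 1 to 3 higher in HRE1-RNAi. The 6 and the 1 came without the first normoxic or the first hypoxic HRE1-RNAi array, when SCPL26, SCPL27, SCPL34, SCPL43, SCPL30 and SCPL31 were no longer called, and the 9 without the third normoxic wild type array. Centring each array on its median moved the median of all probe sets by 0.088 in wild type and 0.11 in HRE1-RNAi, and the higher part of all calls from 40.5% to 53.9% and from 41.3% to 55.6%. It left 10 SCPL genes lower in wild type and 7 in HRE1-RNAi. The lower share of all probe sets went from 10.6% to 7.72% in wild type and from 10.7% to 7.48% in HRE1-RNAi. Of the 29 genes, 17 rather than 22 had a change below 0 in HRE1-RNAi. Deviations of same-numbered normoxic and hypoxic arrays correlated above 0.1 in 2 of 4 pairs in wild type (0.013 to 0.14) and in 3 of 4 in HRE1-RNAi (0.023 to 0.42), with 7 of 8 and 4 of 8 arrays closest to their own number, and in 0 of 8 pairs between the lines. In HRE1-RNAi the 0.42 belongs to the arrays numbered 4. There the third normoxic array correlated more with the second hypoxic array (0.20) than with the third (0.12). These values are at most a hint of pairing within a line that the labels do not give. The replicate block, fixed or random (consensus correlation 0.042), gave 12 lower and 1 higher in wild type and 10 lower and 3 higher in HRE1-RNAi. The cause of these shifts was not tested. Taking another probe set per gene was not run, since each member had 1. Signal also limits these counts, since 18 of the 29 genes lay below the median of all probe sets, and 4 of them had every group mean below the pseudocount.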

Other observations

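A pair of probe sets shared by 2 genes each lay outside the family as counted here. The probe set shared by SCPL36 and SCPL37 read between 0.8 and 13.8 in the 16 arrays. The one shared by SCPL39 and AT3G56540 read between 0.7 and 35.9. It had 6.7, 2.2, 1.4 and 4.9 in wild type normoxia and 2.4, 11.8, 20.1 and 35.9 in wild type hypoxia. In HRE1-RNAi it had 1.6, 1.5, 5.2 and 0.7 in normoxia and 3.5, 10.3, 10.3 and 1.8 in hypoxia. Most values of both probe sets were below the pseudocount of 16, and tests of their changes are not given here.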
